A study of Bos taurus with 36 samples.

Results

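The difference in mammary gene expression between glands of an udder milked 4× and 2× daily was compared between day 40 and day 21 of lactation. In each of 6 cows, the change was defined as the day 40 difference in log2 signal (4× minus 2×) less the day 21 difference, so a positive change means that the 4× gland stood higher, relative to its 2× partner, on day 40 than on day 21. Members were all 24016 probe sets of the GeneChip Bovine Genome Array that are not controls, measured on 24 of the study's 36 arrays. The 4 groups held 6 rear glands each: 4× glands on day 40, 2× glands on day 40, 4× glands on day 21 and 2× glands on day 21. The cows were multiparous Holsteins whose right side of the udder was milked 4× and whose left side was milked 2× daily until day 21. Both sides were then milked 2×, so the glands called 4× on day 40 were milked in the same way as their partners at the time of biopsy. The 12 day 23 arrays came from fore glands and entered only the shared estimate of spread described below. Side of the udder and milking frequency cannot be told apart, because the 4× side was the right side in every cow. The glands biopsied on day 40 were the rear ones, as on day 21, so they had been biopsied before.

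As background, milk removal acts locally on each gland of the udder. Secretory epithelial cells make milk proteins on the rough endoplasmic reticulum, build milk fat from fatty acids that they take up or synthesise, and secrete both into alveoli that are served by a dense capillary bed. When milk is left in a gland, acute phase proteins, complement, S100 proteins and immediate-early transcription factors are among the genes known to be induced, and they are also known from early involution.

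Signals were the authors' log2 values from the Robust Multichip Average, on which a difference of 1 is a 2-fold difference. Array medians lay between 6.04 and 6.15, and 7491 probe sets had a mean under 5, close to background, and are called dim here. Milk protein markers were high in all 4 groups. The epithelial markers KRT8, KRT18 and EPCAM were well above background, at levels like those of endothelium and not far above those of T cells and macrophages. The mean change of these epithelial markers lay between 0.09 and 0.39 over the cows, and 1 of them passed for the change. Adipocyte and red cell markers were dim, and the neutrophil markers CXCR2, CSF3R and MMP8 were not measured. The 2× gland of cow 1 on day 21 stood apart: its median correlation with the other 23 rear arrays was 0.950, against 0.980 to 0.991 for every other rear array. Changes are therefore also given without cow 1 for many lists and genes whose call or value turns on it. The day 21 and day 40 counts of the gene lists are given with all cows only, so the day 21 counts include this array. Replicates were separate cows, and the number of arrays limits the precision.

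For the change, 2647 of 24016 probe sets (11.0%) had an unadjusted p under 0.05 (limma on the 6 changes). Of these, 1302 (5.42%) were positive and 1345 (5.60%) negative. None passed after Benjamini-Hochberg adjustment, and the smallest adjusted p was 0.284. On day 40, 4910 probe sets (20.4%) differed between 4× and 2× glands at an unadjusted p under 0.05, with 11.6% of all probe sets higher and 8.86% lower in 4× glands. Day 21 had 3826 (15.9%), with 8.02% higher and 7.91% lower. After adjustment 0 remained on either day (limma, smallest adjusted p 0.171 on day 40 and 0.121 on day 21). In what follows, "passed" means an unadjusted p under 0.05, and single genes are to be read with these adjusted values in mind. The split into positive and negative changes depended on scaling: it was 840 and 1811 with each array centred on its median, and 738 and 1160 with values scaled to 5 reference genes. Likewise, the probe sets that passed as higher and lower in 4× glands on day 40 numbered 2783 and 2127 as deposited, 1758 and 2941 with centring and 945 and 2507 with reference genes.

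Differential expression on day 40 resembled that on day 21 in direction. Over all probe sets, the mean effects of the 2 days correlated with r = 0.549, as a description across probe sets of the same cows. In single cows, r ran from -0.07 in cow 5 to 0.60 in cow 1, which had the widest spread and so weighs most in the means. Of the probe sets that passed on day 21, 81.8% had the same sign on day 40, with a median effect in that direction of 0.13 on day 40, against 0.29 on day 21. Of those that passed on day 40, 82.0% had the same sign on day 21, and their median size was 0.25 on day 40 and 0.09 on day 21. Probe sets chosen for a large value on 1 day tend to show a smaller value on the other, so these medians are a description only.

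Probe sets were sorted by these calls. Fading ones, which passed on day 21 and had a change that passed in the opposite direction, numbered 942 (3.92%). Of these, 569 (2.37%) were higher and 373 (1.55%) lower in 4× glands on day 21. Their median size was -0.02 on day 40, counted in the direction of day 21, and 0.34 on day 21. These medians follow in part from the selection, because the day 21 arrays enter both calls. Persisting ones, which passed on both days with the same sign, numbered 856 (3.56%), of which 269 (1.12%) were higher and 587 (2.44%) lower in 4× glands. Appearing ones, which passed on day 40 and had a change that passed in the same direction, numbered 1077 (4.48%), of which 651 (2.71%) were higher and 426 (1.77%) lower in 4× glands on day 40. Only 18 (0.0750%) passed on both days with opposite signs. Without cow 1, 392 were fading, 294 persisting and 951 appearing. Among appearing probe sets that were higher in 4× glands 329 of 651 were dim, as were 30 of 426 that were lower. The share of dim probe sets was 42.5% among positive changes and 7.81% among negative ones, against 31.2% of all probe sets, so counts of positive changes include many signals near background.

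**Figure D1:**
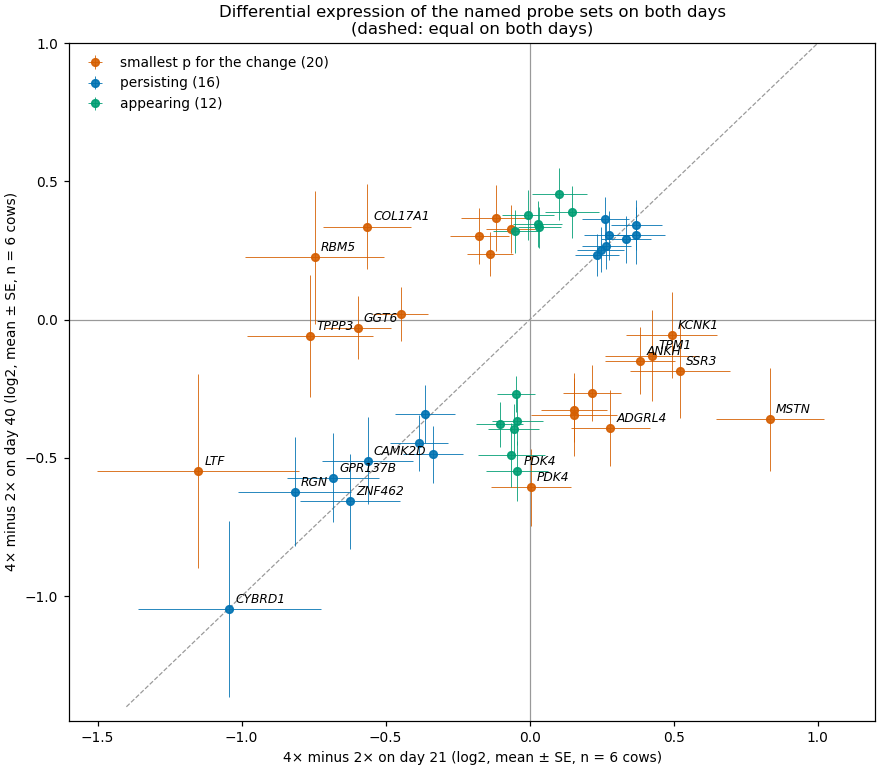
Differential expression (4× minus 2×, log2, mean ± SE over 6 cows) on day 40 (vertical axis) against day 21 (horizontal axis) for the probe sets named by rule: 20 with the smallest p for the change, 16 persisting and 12 appearing. Persisting probe sets lie near the dashed line of equal effects; PDK4 lies on the vertical axis line, with an effect on day 40 only, and MSTN and ADGRL4 lie on opposite sides of 0 on the 2 days.

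With all cows included, genes of the secretory pathway were higher in 4× glands on day 21 far more often than on day 40. How far the day 21 counts rest on cow 1 is not given here. Of 59 measured genes of translocation into the endoplasmic reticulum and of vesicle coats, 11 had a negative change that passed and 0 a positive one, where 10.6% of all 9155 genes, with 1 probe set each, passed, 5.79% negative and 4.86% positive. Of the same 59 genes, 4 were higher and 2 lower in 4× glands on day 40, and 20 were higher and 1 lower on day 21; over all genes 18.4% passed on day 40 (8.90% higher and 9.51% lower) and 17.9% on day 21 (8.29% higher and 9.61% lower). The median change was -0.13, against 0.00 over all genes. These shares over all genes are the measure for every list count below. Without cow 1 the median change was -0.09, with 5 negative calls. In bulk biopsies, fewer cells of a type and less RNA per cell cannot be told apart, here and below.

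SEC16B, which organises the sites where COPII vesicles leave the endoplasmic reticulum, had the smallest p of this list. Its signal was 6.90, 7.24 and 8.50 (lowest, median and highest of 6) in 4× glands and 6.91, 7.67 and 8.54 in 2× glands on day 40. On day 21, it was 7.14, 7.72 and 8.43 in 4× glands and 6.17, 7.50 and 8.0 in 2× glands. The groups overlapped on both days, but within cows the change was negative in 6 of 6, with a mean of -0.63 ± 0.14 (SE; adjusted p = 0.354, limma). SEC14L1 (-0.40) and SEC23IP (-0.35), a partner of the COPII coat, followed. SEC14L1 was counted in this list but is not known as a part of the translocon or of a vesicle coat. At the entry step, the change was -0.29 for SEC61A1, a subunit of the translocon, -0.38 for SEC62, and -0.37 and -0.28 for SRP9 and SRP14 of the signal recognition particle. SSR3, a subunit of the translocon-associated complex, had 2 probe sets. The less bright one was among the 10 probe sets with the smallest p for a negative change (-0.71 ± 0.14), and the brighter one, with a change of -0.29, did not pass.

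The unfolded protein response, which senses and relieves load in the endoplasmic reticulum, had the same direction. Of 22 measured genes, 9 had a negative change that passed and 0 a positive one, against 5.79% and 4.86% over all genes. The median change was -0.20. On day 40 0 were higher and 1 was lower in 4× glands, and on day 21 8 were higher and 1 lower. Without cow 1, 4 had a negative change that passed, and the median was -0.13. The mean over the list was negative in 5 of 6 cows, and cow 3 was the exception (0.07).

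UFM1, a ubiquitin-like modifier that is attached to ribosomes at the endoplasmic reticulum, had signals of 6.55, 7.45 and 7.87 in 4× glands and 6.86, 7.26 and 7.78 in 2× glands on day 40. The day 21 signals were 6.88, 7.56 and 7.98 in 4× glands and 6.47, 7.31 and 7.47 in 2× glands. The 4× gland was higher in 3 of 6 cows on day 40 and in 6 of 6 on day 21, and the change was -0.42 ± 0.11 (adjusted p = 0.354, limma). Its ligase UFL1 had a change of -0.35 ± 0.10, with the 4× gland again higher in 3 cows on day 40 and in all 6 on day 21. HSPA5 (BiP), the main chaperone of this compartment, had a change of -0.29 ± 0.10, negative in all 6 cows. Its effect of -0.15 on day 40 and 0.15 on day 21 did not pass on either day. A second bright probe set of HSPA5 had a change of -0.15 that did not pass. The other members with a negative change that passed were SYVN1 (-0.44), DNAJB9 (-0.42), the stress sensor EIF2AK3 (-0.35), HYOU1 (-0.31), HSP90B1 (-0.29) and CANX (-0.26).

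Genes of fatty acid supply were mostly higher in 4× glands on day 21, with cow 1 far from the other cows. Of 19 measured genes, 6 had a negative change that passed and 0 a positive one, and the median change was -0.26. On day 40 0 were higher and 4 lower in 4× glands, and on day 21 11 were higher and 1 lower. The mean change over the list was -0.80 in cow 1, and the other 5 cows lay between -0.15 and -0.06, so all 6 were negative. Without cow 1, 2 genes passed and the median change was -0.08. SLC27A6, a fatty acid transporter, had a change of -0.55 ± 0.17 and was negative in 5 of 6 cows. FABP4, a fatty acid binding protein, had signals of 12.09, 12.13 and 12.35 in 4× glands and 11.95, 12.10 and 12.32 in 2× glands on day 40. On day 21 the signals were 12.09, 12.24 and 12.31 in 4× glands and 11.44, 12.00 and 12.18 in 2× glands. Its change was -0.26 ± 0.10, and did not pass without cow 1 (-0.19), nor without cow 2, 3 or 6. ACSL3, an acyl-CoA synthetase, differed in kind: its effect was -0.25 on day 40 and 0.03 on day 21, and its change did not pass without cow 1 or 5. LPL, which frees fatty acids from circulating lipoproteins, had a change of -0.39 that did not pass, with effects of 0.04 on day 40 and 0.43 on day 21. These means hide a wide spread. The change of LPL was -1.92 in the lowest cow and -0.15 at the median. Its day 21 effect was 0.20 at the median and 1.93 in the highest cow. The day 21 counts of this list are not given here without cow 1.

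The genes that carry fat and sugar further downstream gave few calls. Of 19 genes of triglyceride synthesis and the milk fat globule 1 had a positive and 0 a negative change that passed, of 11 genes of glucose uptake and lactose synthesis 0 passed, and of 11 lipogenic regulators 0 passed. Without cow 1, the median changes of the first 2 lists were 0.00 and 0.02, against -0.10 and -0.07 with all cows. MUC15, a mucin of the milk fat globule membrane, varied widely between cows: its change was -2.08 in the lowest cow, -0.13 at the median and 0.03 in the highest. SLC35A2, which brings UDP-galactose into the Golgi for lactose synthesis, had 2 probe sets: the brighter had a change of -0.28 that did not pass, and the less bright one was among the persisting ones, at 0.30 on day 40 and 0.37 on day 21. Of 7 caseins and whey proteins 0 passed on either day or for the change, with a median change of -0.07. CSN3 lay between 14.04 and 14.29 in 4× glands and between 14.09 and 14.25 in 2× glands on day 40, and between 14.18 and 14.24 in 4× glands and between 13.81 and 14.25 in 2× glands on day 21. These signals are at the top of the array's range, where normalization across arrays leaves little room for a difference.

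By sign, endothelial genes were mostly lower in 4× glands on day 40 and higher on day 21, although few passed on day 40. Of 13 measured genes, 4 had a negative change that passed and 0 a positive one, against 5.79% and 4.86% over all genes. On day 40 0 were higher and 2 lower, where 9.51% of all genes were lower. On day 21 6 were higher and 0 lower, where 8.29% of all genes were higher. The sign was negative in 11 of 13 genes on day 40 and positive in 11 of 13 on day 21. The median effect was -0.13 on day 40 and 0.17 on day 21, and the median change was -0.22. Without cow 1 the same number, 4, had a negative change that passed and 1 a positive one, and the median change was -0.15. The mean over the list was negative in 5 of 6 cows and 0.08 in cow 4.

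TIE1, a receptor of the angiopoietin system, had signals of 5.79, 6.00 and 6.20 in 4× glands and 6.00, 6.18 and 6.51 in 2× glands on day 40. At day 21 they were 5.99, 6.23 and 6.45 in 4× glands and 5.73, 6.00 and 6.37 in 2× glands. In every cow the 4× gland was lower on day 40 and higher on day 21, although the ranges overlapped on both days. The effect was -0.22 on day 40 and 0.22 on day 21, both past an unadjusted p of 0.05, and the change was -0.44 ± 0.11 (adjusted p = 0.354, limma). PLVAP, of the diaphragms of fenestrated capillaries, had an effect of -0.26 on day 40 and 0.25 on day 21, and its less bright probe set had a change of -0.16 that did not pass. CDH5 (VE-cadherin) had a change of -0.38 and TEK, the partner receptor of TIE1, a change of -0.43. ADGRL4, an adhesion receptor known from endothelium that was not in the list, had a change of -0.67 ± 0.12, negative in 6 of 6 cows, with the 4× gland lower in all 6 on day 40. RASIP1, which is also known from vessels, went against these: 1 probe set, with a mean of 5.07, had a change of 0.48, and 2 others had -0.15 and -0.20 and did not pass.

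MSTN, which encodes myostatin, a ligand of the TGF-beta family that limits muscle growth, had the most negative change of the genes named by rule. Its first probe set gave signals of 4.45, 5.16 and 5.66 in 4× glands and 4.69, 5.50 and 6.30 in 2× glands on day 40. On day 21, the signals were 5.46, 6.50 and 6.79 in 4× glands and 3.64, 5.87 and 6.85 in 2× glands. The change was -1.19 ± 0.19 (adjusted p = 0.284, limma) and negative in 6 of 6 cows. Within 4× glands, the signal on day 40 minus that on day 21 was -1.15 ± 0.32 (SD, n = 6), below 0 in all 6, and within 2× glands it was 0.05 ± 0.81, above 0 in 3 of 6. The second probe set, which was brighter, had a change of -0.74 ± 0.15 that was also negative in 6 of 6 cows. The call was lost for the first with trend and robust moderation and for the second with cow as a random block. The 2 probe sets differed on day 40, at -0.36 and 0.22, neither of which passed, and resembled each other on day 21, at 0.83 and 0.96. TGFBR2, a receptor of this family, had a change of -0.34, which did not pass without cow 1. Over the 26 TGF-beta ligands, receptors and SMADs, 1 change was positive and 3 were negative, against 4.86% and 5.79% over all genes.

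Genes of striated muscle gave a mixed picture in these biopsies. NEB (nebulin) had a change of -0.46 and MYBPC1 (myosin-binding protein C) one of -0.51, both higher in 4× glands on day 21, but the change did not pass without cow 2 or 4 for NEB and without cow 1 or 3 for MYBPC1, whereas TNNC1 had a change of 0.27. The muscle markers ACTA1, CKM and MYH1 averaged between 5.43 and 5.82 in 4× glands and 5.40 and 6.00 in 2× glands on day 40, and between 5.20 and 5.95 in 4× glands and 5.32 and 6.06 in 2× glands on day 21. None of the 3 passed for the change. Their part in the values of MSTN was not tested.

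**Figure D2:**
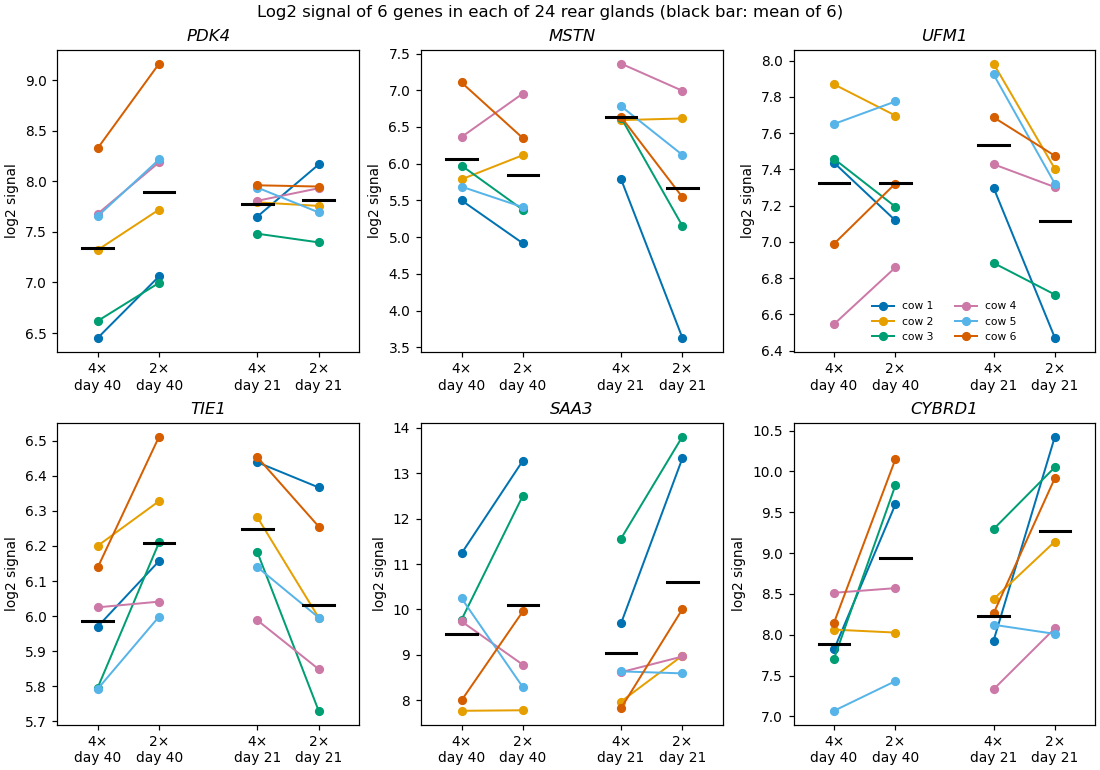
Log2 signal (vertical axes) in each of the 24 rear glands for 6 genes, in 4× and 2× glands on day 40 and on day 21; lines join the 2 glands of a cow and black bars are means of 6. PDK4 was lower in the 4× gland of every cow on day 40 and in 2 of 6 on day 21, TIE1 was lower in the 4× gland of every cow on day 40 and higher on day 21, and CYBRD1 was lower in 4× glands in 5 of 6 cows on both days. MSTN is shown by its brighter probe set.

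PDK4 was lower in 4× glands on day 40, with no mean difference on day 21. PDK4 is the kinase that switches off pyruvate dehydrogenase and is known to be induced when tissue turns from glucose to fat as fuel. Its signal was 6.48, 6.85 and 8.19 in 4× glands and 7.13, 7.53 and 8.88 in 2× glands on day 40. On day 21, it was 7.51, 7.81 and 8.10 in 4× glands and 7.32, 7.95 and 8.20 in 2× glands. The 4× gland was lower in 6 of 6 cows on day 40, by 0.39 to 0.97, and in 2 of 6 on day 21. The effect was -0.61 ± 0.14 on day 40 and 0.00 ± 0.14 on day 21, and the change was -0.61 ± 0.09 (adjusted p = 0.284, limma). A second probe set had a change of -0.50 ± 0.11, also with the 4× gland lower in all 6 cows on day 40, and another had -0.29, which did not pass, although its effect on day 40 did (-0.34). The ranges of the 2 groups overlapped on both days, and with cow as a random block the change did not pass for either of the first 2 probe sets.

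PDK4 was 1 of 19 measured genes in the list of energy sensing and mTORC1, the kinase complex that couples nutrients to protein synthesis. Of the 19, PDK4 included, 5 had a negative change that passed and 1 a positive one, and the mean over the list was negative in 6 of 6 cows. On day 40 2 were higher and 6 lower in 4× glands, and on day 21 3 were higher and 3 lower. The shares over all genes were 9.51% lower on day 40 and 5.79% with a negative change. RPS6KB1, the S6 kinase downstream of mTORC1, was at -0.37 on day 40 and -0.10 on day 21, with a change of -0.27 ± 0.10; its other probe set had a change of -0.10 that did not pass. RPTOR, the scaffold of mTORC1, was at -0.22 on day 40 and 0.05 on day 21. The change of RPS6KB1 did not pass without cow 4 or 5, and that of RPTOR not without cow 2 or 4. SESN1, a stress-induced inhibitor of mTORC1, was lower in 4× glands on both days, at -0.51 and -0.24 on days 40 and 21. DEPTOR, another inhibitor, was the member with a positive change (0.23). Without cow 1, 4 negative changes and no positive one passed.

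Where regulators of chromatin passed on day 40, they were lower in 4× glands. Of 34 measured genes, 0 were higher and 8 lower in 4× glands on day 40, against 1 higher and 2 lower on day 21. A negative change passed in 6 and a positive one in 0. The shares over all genes were 9.51% lower on day 40 and 5.79% with a negative change. The median effect was -0.12 on day 40 and -0.03 on day 21, and the list mean had a negative change in 6 of 6 cows. DNMT1, which copies DNA methylation after replication, had signals of 6.61, 6.92 and 7.25 in 4× glands and 7.16, 7.26 and 7.50 in 2× glands on day 40. The day 21 signals were 6.77, 7.15 and 7.26 in 4× glands and 7.06, 7.17 and 7.54 in 2× glands. Its 4× gland was lower in all 6 cows on day 40 and in 2 on day 21, and its change of -0.26 ± 0.10 did not pass without cow 1 (-0.21), 4 or 6. KDM6A, a histone demethylase, had a change of -0.35 ± 0.09, negative in 6 of 6 cows. EHMT1, a histone methyltransferase, had one of -0.30 ± 0.10, but 3 less bright probe sets had positive changes that did not pass. EZH2 differed in timing, at 0.02 on day 40 and 0.50 on day 21. Without cow 1, 3 changes passed, all negative.

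The other genes named for an effect that appeared lower on day 40 included 2 more of this kind. NCOA1, a coactivator of nuclear receptors, was at -0.39 on day 40 and -0.06 on day 21. ARID4B, a subunit of a deacetylase complex, was at -0.49 on day 40 and -0.06 on day 21, and lower in the 4× gland of 6 of 6 cows on day 40 but in 2 of 6 on day 21. ACTN1 (alpha-actinin), KLC1 (a light chain of kinesin) and ZNF398 lay between -0.38 and -0.27 on day 40. ZNF398 no longer met the rule without cow 2, 3, 4 or 5, nor did ACTN1 without cow 3 or 6, and with cow as a random block PDK4 and ZNF398 did not. Genes named for an effect that appeared higher on day 40 were CASKIN2 (0.45), RPL26 (0.39), TMEM80 (0.38), ESPL1 (0.35), CNNM1 (0.33) and MAPK10 (0.32). Their means lay between 5.26 and 6.76. The brightest probe set of RPL26, at a mean of 12.73, was at -0.02 on day 40, that of CASKIN2 at -0.09 and that of TMEM80 at -0.08. The named probe set of RPL26 no longer met the rule without cow 4, or with scaling to reference genes.

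Positive changes that passed outnumbered negative ones among acute phase proteins, complement and S100 proteins. Of 24 acute phase and antimicrobial genes, 5 had a positive change that passed and 0 a negative one. Of 20 complement genes 4 had a positive and 1 a negative change, and of 17 S100 and chitinase-like genes 5 had a positive and 0 a negative one. The S100 list had a median effect of -0.16 on day 40 and -0.58 on day 21. Of the acute phase genes, 4 were higher and 2 lower in 4× glands on day 40, and 4 were higher and 7 lower on day 21. Of the complement genes, 1 was higher and 4 lower on day 40, and 1 was higher and 10 lower on day 21. Of the S100 and chitinase-like genes, 3 were higher and 2 lower on day 40, and 1 was higher and 11 lower on day 21. Over all genes, 9.51% were lower on day 40 and 9.61% on day 21. Without cow 1, 5 acute phase, 4 complement and 3 S100 changes passed as positive.

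SAA3, an acute phase protein made by mammary epithelium, had signals of 7.77, 9.76 and 11.23 in 4× glands and 7.78, 9.37 and 13.28 in 2× glands on day 40. On day 21 the signals were 7.83, 8.63 and 11.56 in 4× glands and 8.59, 9.49 and 13.81 in 2× glands. The 4× gland was lower in 4 of 6 cows on day 40 and in 5 of 6 on day 21, and the change was 0.92 ± 0.25 (adjusted p = 0.354, limma). Cows spanned several log2 units within every group. LTF (lactoferrin), the iron-binding defence protein of milk, had a change of 0.60 ± 0.12 in its less bright probe set and of 0.27 ± 0.09 in the brighter one, each positive in 6 of 6 cows. In the brighter probe set the mean effect was -0.53 on day 40 and -0.79 on day 21, and both passed. The 4× gland was lower in 6 of 6 cows on day 21 but in only 3 of 6 on day 40. The day 40 differences ran from -1.53 to 0.19, so the day 40 mean does not describe all cows.

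Within complement, the course differed between genes. CFI, a protease that inactivates C3b, was at -1.11 on day 40 and -1.70 on day 21, and CFB, of the alternative pathway, at -0.86 on day 40 and -1.30 on day 21. Both passed on both days as well as for the change (0.59 ± 0.17 for CFI and 0.44 ± 0.12 for CFB). For each, the 4× gland was lower in 4 of 6 cows on day 40 and in 6 of 6 on day 21. Day 40 differences ran from -2.65 to 0.91 for CFI and from -2.15 to 0.48 for CFB. C4A and SERPING1, the inhibitor of C1, were also lower on both days, at -0.32 and -0.33 on day 40 and -0.27 and -0.32 on day 21, with changes near 0. C1S, a protease of the classical pathway, was at -0.13 on day 40, which did not pass, and at -0.47 on day 21. CD46, a membrane inhibitor of complement, was the member with a negative change (-0.32). Among S100 genes, S100A13 was at -0.27 on day 40 and -0.79 on day 21 and S100A11 at -0.25 on day 40 and -0.58 on day 21, with the 4× gland lower in 6 of 6 cows on day 21 for each. CHI3L1, a chitinase-like protein, had effects of -1.18 on day 40 and -1.96 on day 21, but its change of 0.79 did not pass.

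Immediate-early genes, which respond within minutes to stretch and growth signals, had 5 positive and 0 negative changes that passed among 27 measured. On day 40 2 were higher and 7 lower in 4× glands, and on day 21 0 were higher and 13 lower, and 7 were persisting. The shares over all genes were 9.51% lower on day 40, 9.61% lower on day 21 and 4.86% with a positive change. EGR1 was at -0.87 on day 40 and -1.24 on day 21, KLF10 at -0.65 on day 40 and -0.79 on day 21, and JUNB at -0.44 on day 40 and -0.70 on day 21. Not all members stayed low. The study listed FOS and JUN as lower in 4× glands on day 21, with no significant difference on day 40. It gave the same course for KLF10, by another probe set than the one used here. FOSB was different: it was at 0.26 on day 40, past an unadjusted p of 0.05, and -0.00 on day 21, and its change did not pass without cow 1 or 5. Another probe set of FOSB was at 0.20 on day 40 and -0.32 on day 21. The list mean of the change was 0.74 in cow 1 and lay within -0.15 and 0.18 elsewhere, and without cow 1 a single positive change passed.

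Genes of epithelial junctions and of luminal and ductal cells followed. CLDN4, a claudin of tight junctions, had signals of 6.64, 7.26 and 7.79 in 4× glands and 6.50, 7.41 and 8.50 in 2× glands on day 40. At day 21 they were 6.70, 6.86 and 7.44 in 4× glands and 6.89, 7.49 and 9.54 in 2× glands. The 4× gland was lower in 3 of 6 cows on day 40 and in 6 of 6 on day 21, and the change was 0.63 ± 0.16 (adjusted p = 0.354, limma). Of 26 keratins and junction genes, 4 had a positive and 1 a negative change, against 4.86% and 5.79% over all genes. Lower in 4× glands were 8 on day 40 and 11 on day 21, against 9.51% and 9.61% over all genes. Of 9 luminal progenitor and ductal genes 3 had a positive change, namely KIT (0.55), ELF3 (0.37) and LGALS3 (0.49), and the list mean was positive in 6 of 6 cows. KIT is the receptor of stem cell factor and ELF3 an epithelial transcription factor. The probe set of KIT used here was at -0.06 on day 40 and -0.61 on day 21. The study listed KIT by another probe set, which it gave as lower in 4× glands on both days. The change of LGALS3 (galectin-3) did not pass without cow 1, 2, 4 or 5.

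The remaining genes with the smallest p for a positive change had less in common. COL17A1, a collagen of hemidesmosomes, had a change of 0.90 ± 0.16, positive in 6 of 6 cows, but its brighter probe set had -0.06 and was lower in 4× glands on both days (-0.54 on day 40 and -0.48 on day 21). RBM5, a splicing factor, had 0.97 ± 0.15, and its brightest probe set had -0.06. GGT6 (0.57), TPPP3 (0.70) and CKB (0.47), which is the brain form of creatine kinase, each had a single probe set and a 4× gland that was lower in 6 of 6 cows on day 21. Of the 20 genes named for their change, 14 had another probe set that was not dim. In 5 of the 14 another probe set passed in the same direction (PDK4, MSTN, LTF, SEMA6D and RBM5), and in 9 none did. Calls for the 20 held without each cow in turn, but not with every model of the cow. With cow as a random block, 5 of the 10 negative and 9 of the 10 positive calls held, and those of PDK4, ZNF330, SEMA6D, ANKH, KCNK1 and LTF were lost. With no replicate block at all, 3 of the 10 negative and 7 of the 10 positive calls held. Of the other genes described, the random block also ended the calls for the change of UFM1, HSPA5, SLC27A6, FABP4, SAA3, CFI, CFB, CLDN4, KIT, ELF3, S100A11, S100A13, KDM6A, DNMT1 and RPS6KB1, among others.

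Effects that persisted were led on the lower side by CYBRD1, a ferric reductase that prepares iron for uptake. Its signal was 7.07, 7.94 and 8.51 in 4× glands and 7.43, 9.08 and 10.15 in 2× glands on day 40. On day 21, it was 7.33, 8.19 and 9.29 in 4× glands and 8.01, 9.53 and 10.43 in 2× glands. The effect was -1.05 ± 0.32 on day 40 and -1.04 ± 0.32 on day 21, and the 4× gland was lower in 5 of 6 cows on each day. Its size varied widely between cows, from -2.12 to 0.04 on day 40 and from -2.50 to 0.11 on day 21. On day 40 the glands were nearly level in cow 2 (8.06 in 4× and 8.03 in 2×) and in cow 4 (8.51 in 4× and 8.57 in 2×). Its second probe set was lower on both days too, at -0.77 and -1.02 on days 40 and 21. FRRS1, another ferric reductase, was at -0.96 on day 40 and -1.03 on day 21. Over 14 genes of iron handling the change was positive in 3 and negative in 2 of those that passed, and 4 on day 40 and 7 on day 21 were lower in 4× glands.

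ZNF462, a zinc finger protein, was at -0.66 on day 40 and -0.62 on day 21, and 2 further probe sets that were not dim were lower on both days. GPR137B, a lysosomal membrane protein, was at -0.57 and -0.68 on days 40 and 21, FBXL4, a mitochondrial F-box protein, at -0.45 and -0.39, and CAMK2D, a calcium-dependent kinase, at -0.51 and -0.56. HDAC7, a class IIa histone deacetylase, was at -0.49 on day 40 and -0.34 on day 21 and lower in 6 of 6 cows on each day, but its other probe set passed on day 40 only (-0.27). A probe set at -0.62 on day 40 and -0.82 on day 21 is annotated as RGN by the array and listed by the study under another gene, so its gene is uncertain. Of 23 lysosomal proteases and membrane proteins 3 on day 40 and 11 on day 21 were lower in 4× glands, with 0 changes that passed. Of all genes, 9.51% were lower on day 40 and 9.61% on day 21. CTSC, a cathepsin that activates serine proteases, was at -0.49 on day 40 and -0.67 on day 21.

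On the higher side, persisting effects were led by ERLIN1. ERLIN1, a scaffold of degradation at the endoplasmic reticulum, had signals of 6.19, 6.56 and 6.92 in 4× glands and 5.95, 6.32 and 6.41 in 2× glands on day 40. The day 21 signals were 6.27, 6.38 and 6.83 in 4× glands and 5.91, 6.06 and 6.19 in 2× glands. The 4× gland was higher in 6 of 6 cows on each day, and the 2 groups did not overlap on day 21. The effect was 0.34 ± 0.09 on day 40 and 0.37 ± 0.09 on day 21. NPM3, a nucleolar chaperone, was at 0.23 on both days, and SLC25A26, the mitochondrial carrier of S-adenosylmethionine, at 0.25 on both days; another probe set of SLC25A26, which was brighter, was at 0.02 on day 40 and 0.07 on day 21. KCNK1, a potassium channel, had 1 probe set that persisted (0.29 on day 40 and 0.33 on day 21) and 1 that faded (-0.06 and 0.49 on days 40 and 21), so its course is uncertain. PDHA1, the subunit of pyruvate dehydrogenase that PDK4 phosphorylates, was at 0.36 on day 40 and 0.26 on day 21 in the named probe set, and at -0.06 on day 40 and 0.19 on day 21 in the brightest.

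**Figure D3:**
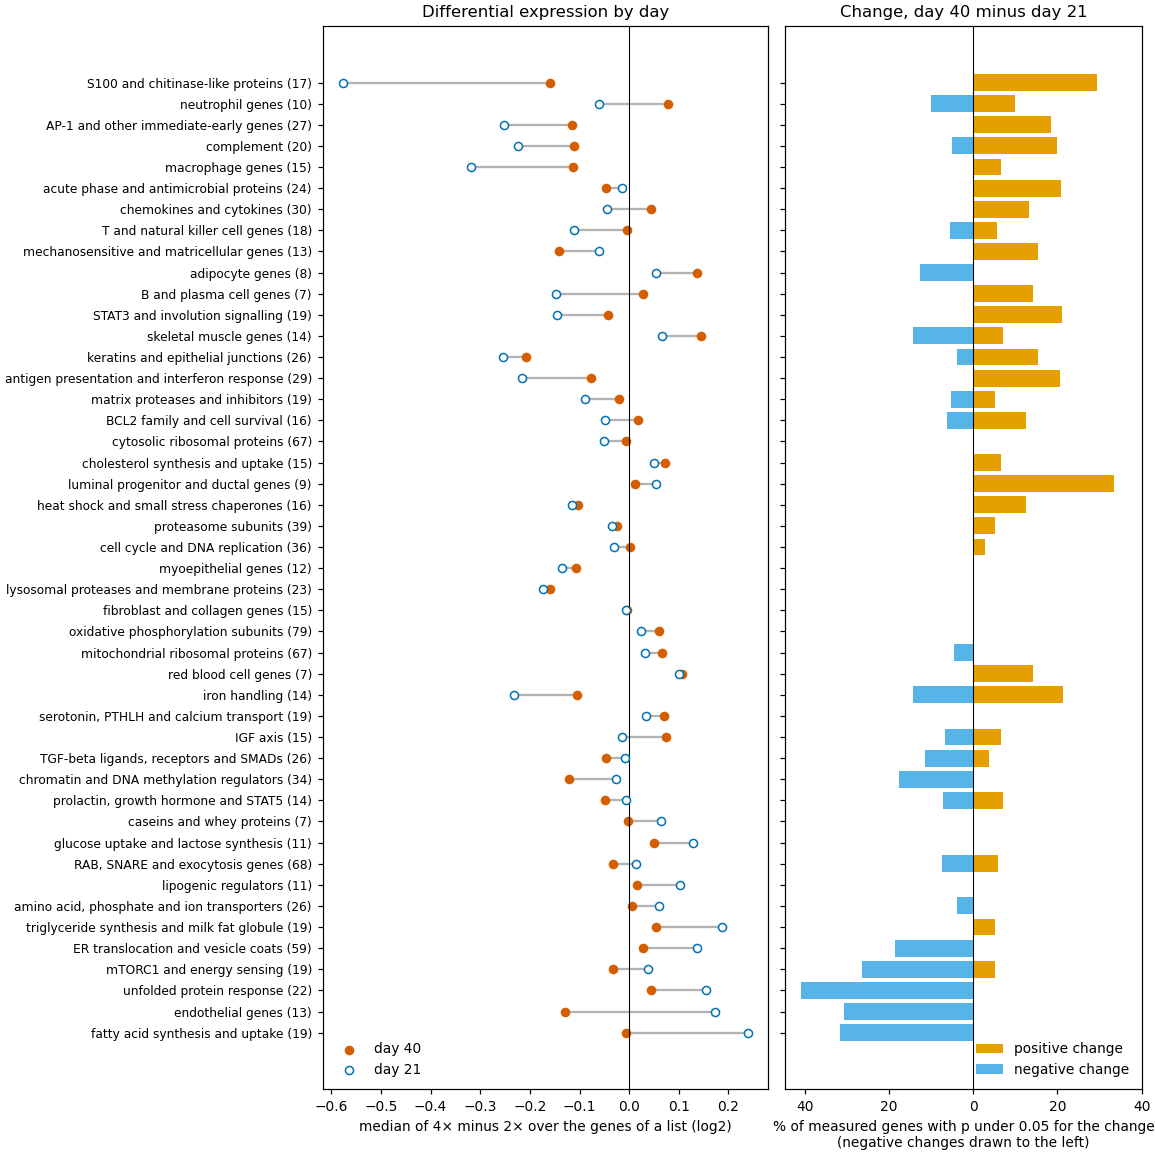
Left, median of 4× minus 2× (log2) over the genes of each of 46 lists on day 40 (filled) and day 21 (open), sorted by the median change, with the number of measured genes in brackets. Right, the percentage of measured genes whose change passed an unadjusted p of 0.05, positive to the right and negative to the left. The unfolded protein response had the highest share of negative calls, 9 of 22 genes, and fibroblast, lysosomal and cytosolic ribosomal genes had 0 calls.

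Among genes of immune function, most changes that passed were positive, mainly in the lists of antigen presentation and of cytokines. Over all genes, 4.86% passed as positive and 5.79% as negative. The macrophage, T cell and neutrophil lists had too few calls to show a direction. Of 29 genes of antigen presentation and interferon response, 6 had a positive change that passed and 0 a negative one, led by OAS1X (0.47), PSMB10 (0.38) and IFI30 (0.30); without cow 1 a single one passed, and the calls of PSMB10 and IFI30 were also lost without cow 4. Of 30 chemokines and cytokines 4 were positive and 0 negative, and CCL2 was at -0.41 on day 40 and -0.99 on day 21. Of 15 macrophage genes 1 passed, CYBB (0.38), of 18 genes of T and natural killer cells 1 was positive and 1 negative, and of 10 neutrophil genes 1 was positive and 1 negative. The markers CSF1R and CD68 averaged 6.70 to 7.38 in 4× glands and 6.88 to 7.63 in 2× glands on day 40, and 6.80 to 7.12 in 4× glands and 6.78 to 8.01 in 2× glands on day 21. The T cell markers CD3D, CD3E and CD2 averaged 6.70 to 7.47 in 4× glands and 6.90 to 7.45 in 2× glands on day 40, and 6.94 to 7.41 in 4× glands and 7.05 to 7.67 in 2× glands on day 21. Whether cell numbers moved with these genes was not tested.

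Structural and housekeeping lists gave few calls. Among 79 oxidative phosphorylation subunits, 67 cytosolic ribosomal proteins, 15 fibroblast and collagen genes and 12 myoepithelial genes, 0 changes passed, and the median changes lay between 0.01 and 0.05. Of 67 mitochondrial ribosomal proteins 3 had a negative change, of 39 proteasome subunits 2 had a positive one, and of 36 genes of the cell cycle 1 had a positive one. The ribosomal list showed how far 1 animal could differ: its mean change was 0.32 in cow 1, against -0.03 to 0.02 for the rest. Of 14 genes of prolactin, growth hormone and STAT5 signalling, 1 was positive (PTPN1, 0.31) and 1 negative (NR3C1, the glucocorticoid receptor, -0.36). Of 15 genes of the IGF axis 1 was positive and 1 negative, the insulin receptor INSR (-0.25 in its brightest probe set), which did not pass without cow 1, 2, 5 or 6.

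**Figure D4:**
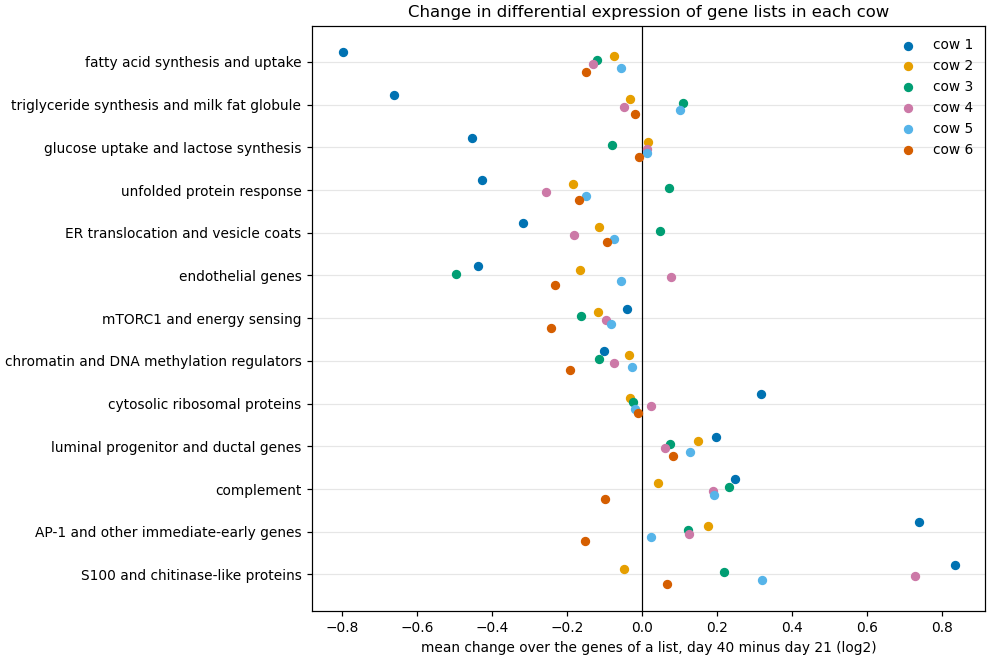
Mean change in differential expression (day 40 minus day 21, log2) over the genes of 13 lists in each of the 6 cows. Cow 1 lies far to the left for fatty acid, triglyceride and lactose genes and far to the right for immediate-early and ribosomal genes, whereas the mTORC1 and chromatin lists are below 0 and the luminal list above 0 in 6 of 6 cows.

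The study had selected 75 probe sets for a change from day 21 to day 23 and grouped them by their day 40 pattern, so their values here are a description of that choice. Of the 75, 34 had a positive and 11 a negative change from day 21 to day 40 that passed, beside the 11.0% of all probe sets. By the sorting above, 45 were fading, 28 persisting and 0 appearing. The 61 of the main group were lower in 4× glands on both days, with a median effect of -0.56 on day 40 and -0.91 on day 21; 32 faded and 28 persisted. The 8 of the group with the opposite course had medians of 0.25 on day 40 and 0.85 on day 21, and all 8 faded. PHYHIPL, 1 of the genes with a negative change, was at 0.27 on day 40 and 0.92 on day 21.

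The size of differential expression over the whole array did not differ detectably between the days. Its SD over 24016 probe sets was 0.277 ± 0.094 on day 40 and 0.301 ± 0.154 on day 21 (mean ± SD, n = 6 cows). It was lower on day 40 in 4 of 6 cows, and the mean difference was -0.024 ± 0.081 (exact two-sided sign-flip permutation test, p = 0.62; the smallest p it allows is 0.031). Cow 1 had the widest spread on both days, 0.425 on day 40 and 0.597 on day 21, and without it the mean difference was 0.006.

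The day 21 pattern of a cow was found again in the same cow on day 40 to very different degrees. The correlation over probe sets was 0.60 in cow 1, 0.49 in cow 3, 0.33 in cow 6, 0.24 in cow 4, 0.16 in cow 2 and -0.07 in cow 5, with a mean of 0.29. Between different cows, it averaged 0.09 over 30 pairs and ran from -0.25 to 0.55. In 3 of 6 cows the own day 40 pattern was the best match of the day 21 pattern. The patterns of a cow share no arrays, but they share the animal and its rear glands, which were biopsied on both days. How much of the correlation within cows came from fixed differences between these glands, apart from milking, was not tested.

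**Figure D5:**
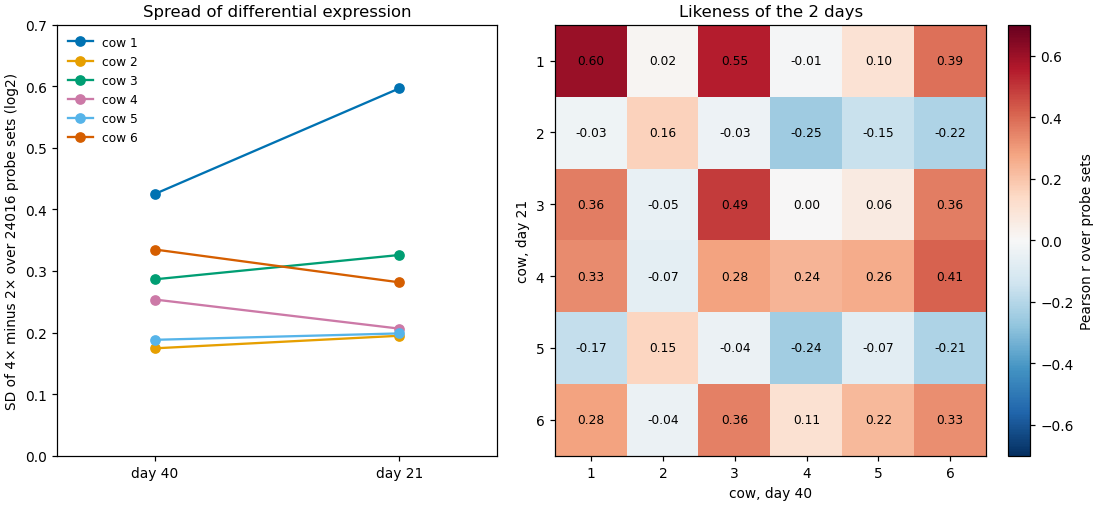
Left, SD of 4× minus 2× (log2) over 24016 probe sets in each cow on day 40 and day 21. Right, Pearson r over probe sets between the day 21 difference of each cow (rows) and the day 40 difference of each cow (columns), with the same cow on the diagonal. Cow 1 has the widest spread on both days, and the highest correlation, 0.60, is that of cow 1 with itself.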

How the data were processed

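RNA of 36 mammary biopsies was hybridised to 1 array each. The deposited log2 values had been background corrected, normalized and summarised by the authors with the Robust Multichip Average (RMA; version not given in the sources used here). Probe level signals were not used here, and 112 control probe sets were left out. Arrays were grouped by cow, milking frequency and day from their labels. The 6 changes within cows were fitted with lmFit and eBayes of limma (version 3.58.1; R 4.3.3). Each day was tested on the 18 within-cow differences of all 3 days with a shared spread, and p-values received Benjamini-Hochberg adjustment over 24016 probe sets. The samples were paired by cow: deviations of the 2 glands from their group means correlated by 0.251 to 0.574 in 12 of 12 pairs, and deviations of the 2 days' differences by 0.094 to 0.526 in 6 cows.

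Symbols came from the array's annotation, single for 13318 of 24128 probe sets, of which 13283 matched RefSeq by gene identifier. Gene lists (46) used 1 probe set per gene, the one with the highest mean. The comparison, lists and tests were chosen with earlier results of these data known. Genes were named by smallest p, among probe sets with 1 symbol and a mean of at least 5: 10 per direction for the change and 8 per direction for persisting effects (same sign in at least 5 cows), 6 per direction for appearing effects that did not pass on day 21, 3 per list described, and, of the study's selected genes, 4 per direction and 4 for both days. Some further members of the lists were named after their values were seen. The fit was tested on simulated data. Alternatives were other blocks, moderation, scaling and filters, and each cow left out in turn. Plots were made with Python 3.11.15 and matplotlib 3.10.9.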

Additional observations from a re-analysis of the deposited data

Results flagged for a closer look

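Among 68 sets of 6 per-cow values that were screened for a sample far from the others (Dixon's test, which picks out about 1 in 20 by chance), 10 were picked out, and in all 10 the far value was that of cow 1. Its SD of differential expression over probe sets on day 21 was 0.597, against 0.195 to 0.326 for the rest. Its mean change was -0.80 for fatty acid synthesis and uptake, -0.66 for triglyceride synthesis and the milk fat globule, -0.45 for glucose uptake and lactose synthesis, -0.35 for lipogenic regulators, and -0.26 for caseins and whey proteins. It was 0.74 for immediate-early genes and 0.32 for cytosolic ribosomal proteins. Among single genes, its change was 0.94 for CKB, against 0.29 to 0.53 for the rest, and -1.52 for SSR3, against -0.67 to -0.23.

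TIE1 was picked out because the 4× gland was lower in all 6 cows on day 40 and higher in all 6 on day 21, with a change of -0.44; the difference between the days did not pass adjustment (limma, adjusted p = 0.354). Over the whole array, 11 probe sets had all 6 cows on 1 side on day 40 and on the other on day 21. Signs drawn at random would give a count of about this size over so many probe sets. The pattern alone therefore does not set TIE1 apart.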

How the results depend on the processing

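No alternative gave a probe set past an adjusted p of 0.05 for the change or for either day. The count for the change was 1444 with no replicate block between the days, 586 with no replicate block at all, 1061 with cow as a random block, 1676 with trend and robust moderation and 993 with 1 probe set per gene, in place of 2647. For day 40 it was 2932 with no replicate block and 1698 with 1 probe set per gene, in place of 4910; for day 21 it was 1858 and 1658, and 2479 with a separate spread for each day, in place of 3826. Leaving out each cow gave 2646 (cow 6) to 6618 (cow 2) on day 40, with 3108 and 3139 without cows 1 and 3, and 1569 (cow 1) to 4416 (cow 5) on day 21. At a p under 0.01, 176 were fading, 98 persisting and 145 appearing; with no replicate block between the days, 568 were fading and 623 appearing; 688 were appearing without dim probe sets and 665 with scaling to reference genes. Leaving out each cow gave 392 (cow 1) to 1012 (cow 5) fading, 294 (cow 1) to 1317 (cow 2) persisting, with 316 and 339 without cows 3 and 6, and 537 (cow 6) to 1316 (cow 2) appearing, with 714 without cow 5. The difference in spread was 0.018 by the interquartile range and between -0.039 (cow 6) and 0.0060 (cow 1) without each cow. Of genes whose change did not pass, leaving out each cow gave -0.11 to 0.0015 for CSN2, -0.011 to 0.18 for JCHAIN, -0.041 to 0.30 for MS4A1 and -0.17 to 0.0014 for HBM, so each took the other sign without 1 of the cows. Of 147 results for named genes past 0.05, none changed sign in 2125 alternatives and 359 of these no longer passed. List medians stayed within 1 SD over cows in 407 of 414 alternatives. This SD is wide where cow 1 lies far out, as in the fatty acid list, at -0.80 against -0.15 to -0.06 for the rest. The count therefore cannot tell whether such medians hold without cow 1. The precision is limited by 6 cows, by signals near background and by the compressed top of the range.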
